A study of Mus musculus with 30 samples.

Results

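Wild type macrophages given prostaglandin E2 (PGE2) together with interleukin-4 (IL-4) were compared with wild type macrophages given IL-4 alone. The comparison used 6 of the 30 RNA-seq libraries of the series, 3 titled for IL-4 with PGE2 and 3 titled for IL-4, and every gene in their count files. The cells were bone marrow-derived macrophages of C57BL/6 mice. Marrow cells had been cultured with CSF-1, the growth factor that turns marrow progenitors into macrophages, at 20 ng/mL to day 7, and CSF-1 stayed in the medium of all groups during stimulation. IL-4 was given at 20 ng/mL and PGE2 at 10 µM, for a time that the sources at hand do not state, and they do not state the age and sex of the mice either. Levels are also reported for 2 other wild type groups of 3 libraries each. These were cells with neither IL-4 nor PGE2, called unstimulated below, and cells given IL-4 with valinomycin, a potassium ionophore that lowers the mitochondrial membrane potential, at 10 nM. The same contrast was available in C57BL/6 macrophages labelled Control shRNA, the comparison arm of a lentiviral short hairpin knockdown of the transcription factor Etv1, with 3 libraries for IL-4 and 3 for IL-4 with PGE2.

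PGE2 is a lipid mediator made from arachidonic acid by cyclooxygenases and PGE synthases. Its receptors EP2 and EP4 couple to stimulatory G proteins, which activate adenylyl cyclase, and the resulting cyclic AMP (cAMP) activates protein kinase A and transcription factors of the CREB family until phosphodiesterases degrade it. IL-4 acts through the IL-4 receptor and STAT6 and induces what is called alternative activation in macrophages, a programme that includes arginase, lectin receptors and other tissue repair genes. The title of the series sets the contrast in a study of the mitochondrial membrane potential and gene expression in the nucleus.

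The 6 compared libraries held 10523471 to 13150631 counts each, so that 3 counts corresponded to 0.228 to 0.285 CPM, the count scaled to a common library size. The summed level of 12 macrophage markers was 24100 to 25910 CPM with IL-4 and 23210 to 25650 CPM with PGE2, and none of the 12 was at 0. Neutrophil markers summed to 424.3 to 487.5 CPM with IL-4 and 371.7 to 480.3 CPM with PGE2, with all 12 detected in both groups, and their part in the results was not tested. Marker sums of dendritic cells, lymphocytes, stromal cells, mast cells with basophils, and erythroid cells with megakaryocytes stayed between 1.556 and 7.439 CPM in all 6 libraries, and Cd3e, Trac, Ncr1, Lum, Fcer1a, Mcpt4 and Alas2 were at 0 in all 6. Of these sums, the stromal one (2.031 to 2.703 CPM with IL-4, 3.346 to 6.323 CPM with PGE2) and the mast cell one (2.734 to 3.747 CPM and 1.556 to 2.224 CPM) did not overlap between the groups, and their part in the results was not tested. In bulk RNA, fewer cells of a type and less RNA per cell cannot be told apart. The libraries of a group are not stated to come from separate mice or cultures, so the p-values speak only of how much these samples vary among themselves, and that variation may be technical.

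PGE2 moved most of the measured genes, the majority of them by less than 2-fold. Of 12824 genes tested with edgeR, 7617 (59.4%) passed an adjusted p of 0.05. There were 3837 genes (29.9%) higher with PGE2 and 3780 (29.5%) lower, and these shares are the background against which each gene group below should be read. At 2-fold or more the shares were 5.29% higher (679 genes) and 4.69% lower (601 genes). Beyond 10-fold the balance was uneven, with 66 genes higher and 7 lower. The median absolute log2 change of the called genes was 0.48, and the median log2 change of all tested genes was 0.00585. Abundant genes were called more often: 24.9% of genes under 1 CPM passed, against 75.5% of those above 100 CPM. Processed pseudogenes went mostly one way, with 31 of 525 higher and 141 lower, but reads of a pseudogene and its parent gene cannot be told apart with confidence in these counts.

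**Figure D1:**
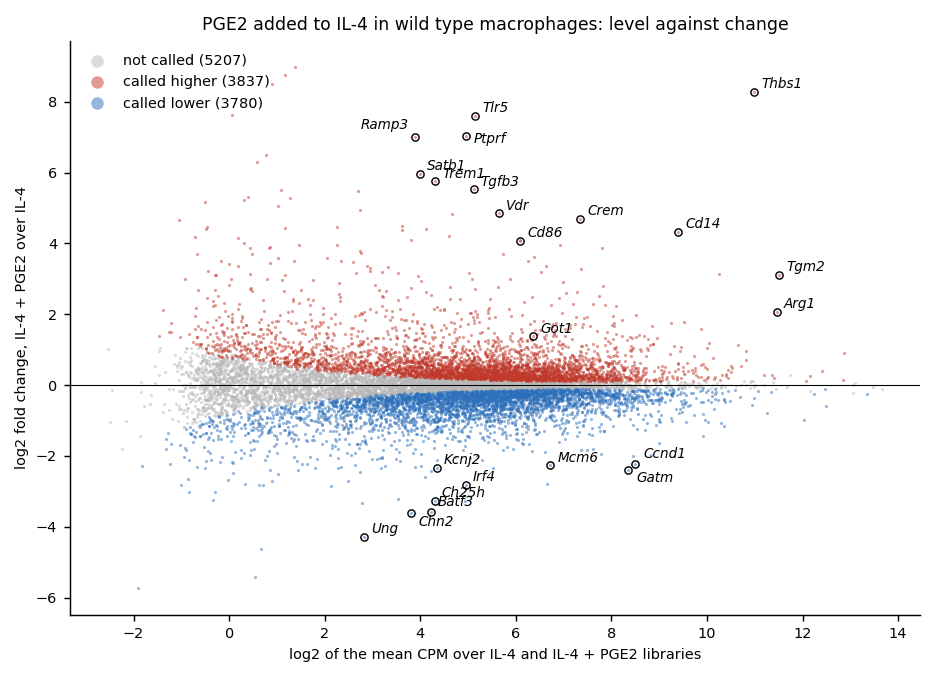
Each point is 1 of the 12824 tested genes in wild type macrophages, with the mean level over the 6 libraries (log2 CPM) on the horizontal axis and the log2 change with PGE2 on the vertical axis. Colours mark genes called higher (3837) or lower (3780), and the labelled genes are among those named in the text.

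Of the 4 genes for receptors that PGE2 itself uses, 2 had enough counts to be tested. Ptger2, which encodes EP2 (chr14:44988195-45003820, plus strand, GRCm38), read 22, 29.4 and 26.7 CPM in the 3 IL-4 libraries and 15.3, 18.9 and 16.1 CPM in the 3 PGE2 libraries. All 3 PGE2 libraries lay below all 3 IL-4 libraries, and the log2 change was −0.64 ± 0.15 (SE; adjusted p = 0.00238). Ptger4, which encodes EP4 (chr15:5206661-5244187, minus strand), read 13.9, 13.8 and 14.2 CPM with IL-4 and 15.9, 13.6 and 11.7 CPM with PGE2. These groups overlapped, and the log2 difference of −0.02 ± 0.11 did not pass (adjusted p = 0.909). Ptger1 and Ptger3, the EP1 and EP3 receptor genes, averaged at most 0.718 and 0.026 CPM and were too low to test. In the control shRNA cells Ptger4 fell, with a log2 change of −1.20 (adjusted p = 2.5e-07), and the difference between the experiments was 1.19 (adjusted p = 1.1e-05).

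Genes that make and clear prostanoids mostly fell. Of 14 tested members, 8 were lower and 4 higher (29.5% and 29.9% of all genes). Tbxas1, thromboxane A synthase, read 473, 489 and 486 CPM with IL-4 and 215, 225 and 219 CPM with PGE2 (log2 change −1.14 ± 0.04, adjusted p = 1.04e-16). Ptgs1, the constitutive cyclooxygenase, fell by 1.09 ± 0.12 on the log2 scale, from 40 to 48.5 CPM in the IL-4 libraries to 17.2 to 24.8 CPM. Ptges2, a membrane-associated PGE synthase, fell by 1.19 ± 0.10. Against this, the inducible cyclooxygenase Ptgs2 rose from a mean of 2.78 to 15.7 CPM, a log2 change of 2.47. The other members that rose were Abcc4, Ptgr1 and Ptges. Only 2 of these 4 rises were called by DESeq2, without IL-4 replicate 1 or without PGE2 replicate 3. Among receptors for related lipids, Cysltr1, a leukotriene receptor, rose from 26.6 to 36.1 CPM to 78.7 to 96.1 CPM (log2 change 1.47 ± 0.09), and Ltb4r1, the leukotriene B4 receptor, rose by 1.25 ± 0.13 on the log2 scale.

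Several cyclic nucleotide phosphodiesterases, the enzymes that degrade cAMP and cyclic GMP, rose strongly. Of 14 tested, 9 were higher and 3 lower, with a median log2 change of 1.13 against 0.00585 for all genes. Pde3b read 18.3, 17.1 and 16.6 CPM with IL-4 and 176, 179 and 184 CPM with PGE2, a log2 change of 3.38 ± 0.07. Pde4d read 4.01, 3.99 and 2.97 CPM against 25.8, 22.7 and 24.6 CPM (2.74 ± 0.14). Pde8a went from 51 to 55.8 CPM to 142 to 146 CPM (1.42 ± 0.05). Each of these separated the groups without overlap. Pde10a went from under 1 CPM in all 3 IL-4 libraries to 11.7, 12.8 and 13.3 CPM (5.48 ± 0.30). It averaged 0.323 CPM unstimulated and 0.319 CPM with valinomycin, so it passed the filter on low counts only through the PGE2 libraries. Such a gene can enter a list count only as a rise, here and in the lists below. For Pde11a the sums were 2 counts over the IL-4 libraries and 47 over the PGE2 libraries, a CPM ratio of 24.3 with a counting interval of 6.37 to 207. The 3 members that fell were Pde1c, Pde1b and Pde8b; Pde1 enzymes are activated by calcium and calmodulin.

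Transcripts of the kinase step moved in both directions, with 1 exception by less than 2-fold among called members. That exception was a fall of 1.35 on the log2 scale. Kinase activity was not measured. In the list of adenylyl cyclases, protein kinase A subunits, anchoring proteins and Epac, 7 of 20 members were higher and 8 lower, and 4 of the 7 rises were called by DESeq2 or without PGE2 replicate 2. Prkar1a, the type I regulatory subunit that holds the kinase inactive until cAMP binds, rose from 423 to 436 CPM to 613 to 642 CPM (log2 change 0.55 ± 0.04). Pkib, a peptide inhibitor of the kinase, rose from 26.2 to 29.3 CPM to 42.5 to 44.5 CPM (0.62 ± 0.06). Akap1, which anchors the kinase to mitochondria, fell from 29.7 to 33.8 CPM to 14.7 to 20.2 CPM (−0.91 ± 0.11), and Prkar2a fell by 0.40 ± 0.06 on the log2 scale.

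CREB family genes and their coactivators rose or did not pass, with 9 of 14 higher and 0 lower by edgeR. Crem, whose inducible products repress cAMP-responsive genes, read 11.2, 13.5 and 11.2 CPM with IL-4 and 291, 318 and 326 CPM with PGE2, a log2 change of 4.70 ± 0.08. Unstimulated and valinomycin-treated cells averaged 10.6 and 14.1 CPM, so that among the 4 wild type groups only the PGE2 libraries were high. Crtc3, a CREB coactivator, rose from 26.3 to 29.4 CPM to 66.1 to 68.9 CPM (1.25 ± 0.07). Creb3l2 rose by the same 1.25 on the log2 scale (± 0.05). Sik3, a kinase that keeps the coactivators in the cytoplasm, rose by 0.73 ± 0.07.

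Of 25 tested textbook targets of cAMP signalling, 18 were higher and 2 lower, and the median log2 change was 0.801. Fosl2, an AP-1 subunit, read 285, 282 and 276 CPM with IL-4 and 581, 575 and 593 CPM with PGE2 (1.05 ± 0.05). Pde4b, a classical target that is also a phosphodiesterase, read 20.4, 18 and 16.6 CPM against 150, 169 and 182 CPM (3.19 ± 0.08). The orphan nuclear receptors Nr4a1, Nr4a2 and Nr4a3 and the AP-1 gene Fosb rose by 2.00, 3.18, 1.91 and 3.47 on the log2 scale, all from means under 6 CPM. The 2 members that fell were the stress-induced factor Atf3, from 700, 741 and 728 CPM to 180, 185 and 184 CPM (−1.98 ± 0.05), and the IL-4-responsive factor Egr2 (−1.40).

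The full palindromic cAMP response element, TGACGTCA, was looked for in RefSeq promoter windows (GRCm38.p6, 250 bases before to 50 after the start, both strands). Among raised genes named by rule or on lists of cAMP signalling genes, 114 had a window, and 2 with the element are given here. They were Prkar1a and Dusp1, a MAP kinase phosphatase that rose from a mean of 56.2 to 93.7 CPM (log2 change 0.73). Whether Crem holds the element is not reported here. The element stood in 3.65% of the windows of tested genes and 2.03% of all 27025 windows. The 114 genes were a chosen set, so no share of them is compared with these values. The stretches below show the element in capitals. That of Prkar1a covers bases 21 to 50 after the start (chr11:109650882-109650911, plus strand), and that of Dusp1 the 250 bases before the start (chr17:26508473-26508722, minus strand). A match describes these letters only.
Prkar1a: ggccagagcgaggcgcatTGACGTCAgcag
Dusp1: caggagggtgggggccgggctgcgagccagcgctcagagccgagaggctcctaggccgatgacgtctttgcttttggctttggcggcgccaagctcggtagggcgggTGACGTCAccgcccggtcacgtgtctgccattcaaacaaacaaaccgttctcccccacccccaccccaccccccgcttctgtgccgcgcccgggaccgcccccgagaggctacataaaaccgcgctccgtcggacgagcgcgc

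The gene that changed most among those with at least 5 CPM was Thbs1, thrombospondin 1, a secreted matrix glycoprotein that can activate latent TGF-beta (chr2:118111876-118127133, plus strand). Its 3 IL-4 libraries read 13.6, 12.8 and 12.7 CPM and its 3 PGE2 libraries 3796, 3921 and 4382 CPM. The log2 change was 8.27 ± 0.19 (adjusted p = 1.13e-10), and unstimulated cells read 51.7 ± 3.94 CPM (SD, n = 3). Per kilobase of exon, Thbs1 went from 2.146 to 664.1 CPM, from rank 8626 to rank 44 among 11454 protein-coding genes, and it held up to 0.428% of a library's counts.

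Other genes among the 15 largest rises went from near the detection floor to a clear level. Tlr5, the receptor for bacterial flagellin (chr1:182954788-182976044, plus strand), read 0.436, 0.319 and 0.312 CPM with IL-4 and 68.1, 69.1 and 74.9 CPM with PGE2. Tgfb3, a TGF-beta cytokine (chr12:86056745-86079041, minus strand), read 1.48, 1.91 and 1.02 CPM against 69.2, 69.4 and 65 CPM (log2 change 5.52 ± 0.14). Vdr, the vitamin D receptor (chr15:97854425-97910630, minus strand), read 4.27, 2.23 and 3.52 CPM against 88, 102 and 99.2 CPM (4.85 ± 0.11). All 4 wild type groups can be compared for these genes, and the unstimulated and valinomycin libraries averaged at most 3.09 CPM for Tlr5, Tgfb3 and Vdr. Itga1, an integrin subunit that binds collagen, rose from 1.72 to 1.75 CPM to 47.2 to 52 CPM (4.82 ± 0.15). Nrg1, an EGF-family growth factor, rose from 0.174 to 0.703 CPM to 11.6 to 14.4 CPM (4.95 ± 0.28). Nt5e, the ectoenzyme CD73 that makes adenosine from AMP, rose from 0.262 to 0.625 CPM to 8.13 to 10.1 CPM (4.46 ± 0.24). Slc4a11, a membrane transporter, and Hid1 rose by 4.50 ± 0.16 and 4.40 ± 0.15. Ptprf, Ramp3, Satb1 and Trem1 complete this set with rises of 5.76 to 7.03 on the log2 scale, and Ramp3, an accessory protein of G protein-coupled receptors, went from at most 0.312 to at least 26.6 CPM.

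The 15 largest falls were smaller than the 15 largest rises. Their higher starting levels follow from the naming rule, by which the higher group had to average 5 CPM or more. Ung, the uracil DNA glycosylase (chr5:114130386-114139323, plus strand), read 14.6, 13.3 and 12.7 CPM with IL-4 and 0.92, 0.429 and 0.681 CPM with PGE2, a log2 change of −4.28 ± 0.27. Hvcn1, the voltage-gated proton channel, read 187, 189 and 155 CPM against 27.1, 26.1 and 23.1 CPM (−2.79 ± 0.14). Slamf8, a SLAM family surface receptor, read 28.9, 31.7 and 27.7 CPM against 3.83, 4.46 and 6.62 CPM (−2.59 ± 0.14). In each of these the groups were far apart. Cdca7, a chromatin factor of cycling cells, fell by 3.20 ± 0.17 on the log2 scale, and Dctd, deoxycytidylate deaminase, by 2.70 ± 0.24. Chn2, a Rac GTPase-activating protein, Fhod3, a formin, Shisa9 and Chst7, a sulfotransferase, fell by 3.61, 2.86, 2.45 and 2.35. Dnmt3aos, which fell by 3.34, is annotated antisense to Dnmt3a. Reads of the 2 genes cannot be told apart unless strand was used in counting, which was not stated, so its value is uncertain.

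**Figure D2:**
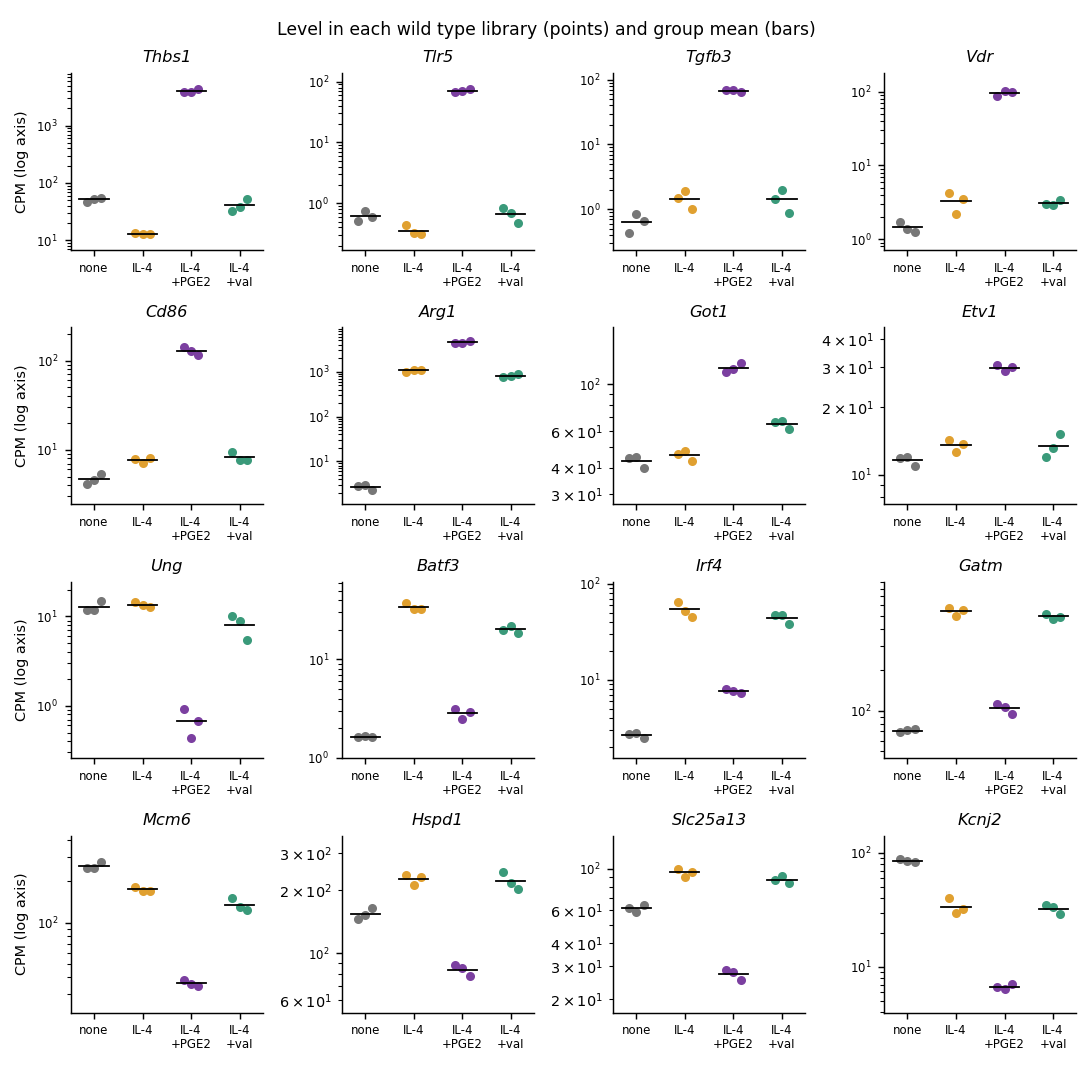
CPM on a log axis of 16 genes in each of the 3 libraries of the 4 wild type groups (unstimulated, IL-4, IL-4 with PGE2, IL-4 with valinomycin); points are libraries and bars are group means. Thbs1, Tlr5, Tgfb3, Vdr and Cd86 are high in the PGE2 libraries alone among the 4 groups, while Batf3, Irf4 and Gatm are high in the IL-4 and valinomycin libraries and low in the unstimulated and PGE2 libraries.

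The IL-4 programme was split rather than raised or lowered as a whole. Of 32 tested alternative activation genes, 11 were higher and 16 lower, and the median log2 change was −0.298. Arg1, arginase 1 (chr10:24915221-24927484, minus strand), averaged 2.69 ± 0.368 CPM unstimulated. It read 1014, 1119 and 1119 CPM with IL-4 and 4402, 4444 and 4773 CPM with PGE2. Tgm2, transglutaminase 2 (chr2:158116402-158146436, minus strand), read 558, 632 and 629 CPM with IL-4 and 5146, 5071 and 5467 CPM with PGE2 (log2 change 3.11 ± 0.06). Per kilobase of exon, Tgm2 moved from rank 326 to rank 28 of the protein-coding genes and Arg1 from rank 59 to rank 10. The lectin genes Mgl2 and Clec10a rose together, from 117 to 127 CPM to 388 to 409 CPM and from 122 to 138 CPM to 382 to 446 CPM. Ccl24, an eosinophil-attracting chemokine, rose from 6.71 to 7.49 CPM to 28.5 to 34.8 CPM (2.15 ± 0.11).

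Other IL-4-induced genes lost most of their induction. Irf4, a transcription factor of alternative activation (chr13:30749226-30766976, plus strand), averaged 2.67 ± 0.157 CPM unstimulated, read 64.3, 52.8 and 45.4 CPM with IL-4, and 7.98, 7.72 and 7.2 CPM with PGE2 (−2.82 ± 0.14). Batf3, an AP-1 family factor (chr1:191097847-191108945, plus strand), averaged 1.64 ± 0.0346 CPM unstimulated, read 37.8, 32.8 and 32.4 CPM with IL-4, and 3.14, 2.49 and 2.92 CPM with PGE2 (−3.58 ± 0.12). Retnla, a secreted product of alternative activation, read 67.8, 50.4 and 49.1 CPM against 7.36, 4.55 and 5.25 CPM (−3.26 ± 0.20). With PGE2 these genes stood closer to the unstimulated than to the IL-4 libraries. Ch25h, cholesterol 25-hydroxylase, read 44.2, 31.1 and 31.9 CPM against 5.52, 2.92 and 2.33 CPM (−3.26 ± 0.33). Chil3, a chitinase-like protein, was barely affected at 254, 240 and 247 CPM against 269, 283 and 257 CPM. Its log2 change of 0.13 ± 0.05 had an adjusted p of 0.0453, and it was not called by DESeq2, with upper quartile scaling, or without IL-4 replicate 2 or 3 or PGE2 replicate 1 or 2.

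Receptor signalling upstream of STAT6 was altered at several genes, with 11 of 22 members higher and 5 lower, the latter Ptpn1, Ptpn6, Jak1, Stat5a and Il13ra1. Il4ra, the IL-4 receptor alpha chain, read 329, 342 and 327 CPM with IL-4 and 1207, 1088 and 1121 CPM with PGE2 (1.77 ± 0.05). Jak2 rose from 141 to 146 CPM to 325 to 359 CPM (1.26 ± 0.05), and Stat3 by 0.62 ± 0.05 on the log2 scale. Ptpn1, a phosphatase of JAK kinases, fell from 220 to 258 CPM to 99.8 to 109 CPM (−1.15 ± 0.06). Stat6 itself averaged 275 and 277 CPM and was not called (log2 difference 0.01).

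Around arginase, the arginine and polyamine list held rises and large falls, 8 and 7 of 18. Odc1, the rate-limiting enzyme of polyamine synthesis, rose from 124 to 130 CPM to 323 to 407 CPM (1.49 ± 0.07). Smox, spermine oxidase, rose from 35.7 to 39.1 CPM to 119 to 136 CPM (1.80 ± 0.06). Gatm, which takes arginine into creatine synthesis (chr2:122594467-122611303, minus strand), read 579, 504 and 555 CPM with IL-4 and 111, 106 and 93.7 CPM with PGE2, against 71 ± 1.91 CPM unstimulated. Its log2 change was −2.39 ± 0.06, and per kilobase of exon it moved from rank 229 to rank 1395. The aminopropyl transferases Srm and Sms, which make spermidine and spermine, fell by 1.63 and 0.93.

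Transcription factor families were affected gene by gene. Of 16 ETS factors, the family of Etv1, 9 were higher and 2 lower, the latter Erf and Spi1. Etv1 (chr12:38779380-38870484, plus strand) read 14.3, 12.7 and 13.7 CPM with IL-4 and 30.6, 28.9 and 30.1 CPM with PGE2 (1.14 ± 0.09, adjusted p = 1.04e-10), while unstimulated and valinomycin cells averaged 11.6 and 13.4 CPM. Ets2 rose more, from 57.6 to 68.1 CPM to 349 to 374 CPM (2.52 ± 0.06), and Elk3 and Fli1 by 1.08 ± 0.06 and 0.66 ± 0.06. Among MAF, C/EBP and nuclear receptor genes, Maf, a factor of macrophage identity, rose from 201 to 248 CPM to 668 to 739 CPM (1.66 ± 0.06). Pparg, a lipid-sensing nuclear receptor, fell from 80.2 to 87.7 CPM to 22 to 23.9 CPM (−1.83 ± 0.07). Cebpa, a myeloid C/EBP factor, fell from 250 to 263 CPM to 62.5 to 80.6 CPM (−1.83 ± 0.09). Nfkb1, which encodes the p50 precursor, rose from 273 to 290 CPM to 604 to 626 CPM (1.12 ± 0.05). Irf7 rose by 1.75 ± 0.06 on the log2 scale, Irf8 fell by 0.61 ± 0.05, and Klf2 fell by 1.32 ± 0.13.

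The malate-aspartate shuttle, which carries reducing equivalents into mitochondria, was represented by 7 genes. Got1, the cytosolic aspartate aminotransferase (chr19:43499752-43524605, minus strand), read 46.6, 48.1 and 42.8 CPM with IL-4 and 114, 118 and 126 CPM with PGE2 (1.38 ± 0.06). Slc25a13, a mitochondrial aspartate-glutamate carrier (chr6:6041218-6217173, minus strand), read 100, 90 and 96.4 CPM against 28.8, 28.1 and 25.5 CPM (−1.79 ± 0.06). The cytosolic enzyme thus rose and this carrier fell, both without overlap. Got2, the mitochondrial aminotransferase, fell by 0.25 ± 0.05 on the log2 scale. Mdh1 fell by 0.14 ± 0.05 and the second carrier, Slc25a12, by 0.16 ± 0.07, with adjusted p values of 0.0105 and 0.0483. Mdh2 and the oxoglutarate carrier Slc25a11 did not pass, at −0.09 ± 0.05 and 0.07 ± 0.05. Of these 4 falls, 2 were called without PGE2 replicate 1.

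Nuclear genes for mitochondrial proteins fell in large numbers and by small amounts. Of 81 respiratory chain subunits tested, 48 were lower and 2 higher (Atp5d and Ndufb9), with a median log2 change of −0.198. Of 76 mitochondrial ribosomal proteins 49 were lower and 1 higher, Mrpl24, and 2 were higher without IL-4 replicate 2. Atp5b, the catalytic subunit of ATP synthase, read 792, 861 and 800 CPM with IL-4 and 603, 589 and 592 CPM with PGE2 (−0.46 ± 0.05). Mrpl12 fell further, from 71.8 to 81.5 CPM to 30.2 to 38 CPM (−1.15 ± 0.08). Import and folding genes had the largest falls of these lists, with 19 of 28 lower, 1 higher (Timm17b, a call lost by DESeq2 and without IL-4 replicate 3 or PGE2 replicate 2) and a median of −0.525. Hspd1, the matrix chaperonin, read 236, 211 and 231 CPM against 88.7, 85.2 and 77.8 CPM (−1.43 ± 0.07), and its partner Hspe1 fell by 1.07 ± 0.07. In the citric acid cycle 15 of 33 members were lower and 3 higher, Aco1, Pdk2 and Pdk3. Idh2 and Idh3a, isocitrate dehydrogenase genes, fell by 0.92 ± 0.06 and 0.81 ± 0.07. Ppargc1b, a coactivator of mitochondrial biogenesis, fell from 11.2 to 14.8 CPM to 2.53 to 3.37 CPM, and its relative Pprc1 from 88.7 to 104 CPM to 40.8 to 46.7 CPM.

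Transcripts of the protein genes in the mitochondrial genome were not called lower, and protein was not measured. Of 8 tested, 3 were higher (37.5%, against 29.9% of all genes) and 0 lower by edgeR. The rises were mt-Nd5 (0.30 ± 0.07), mt-Co1 (0.15 ± 0.05) and mt-Atp8 (1.30 ± 0.40). The last overlaps mt-Atp6 and varied between 40 and 143 CPM among the IL-4 libraries. The mt-Co1 call was lost without IL-4 replicate 2 or PGE2 replicate 3, and the mt-Atp8 call without IL-4 replicate 3 or PGE2 replicate 2. Mitochondrial transcripts took 1.11 to 1.44% of all counts over the 6 libraries. Among carriers that bear on the membrane potential, 9 of 15 were lower and 3 higher, Slc25a3, Slc25a20 and Micu2. Vdac2, an outer membrane channel, fell from 365 to 376 CPM to 194 to 211 CPM (−0.86 ± 0.04), and Atpif1, the inhibitor of ATP synthase, fell by 0.59 ± 0.05.

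Glycolytic genes leaned the other way, with 12 of 26 higher and 6 lower. Hk1 rose from 106 to 128 CPM to 178 to 201 CPM (0.71 ± 0.06) and Pfkfb4, which controls a regulator of phosphofructokinase, from 137 CPM in all 3 IL-4 libraries to 180 to 219 CPM (0.56 ± 0.06). Slc16a1, a monocarboxylate transporter, fell from 32.9 to 36.1 CPM to 15.1 to 19 CPM (−1.07 ± 0.09), whereas its relative Slc16a3 rose by 1.32. Lipid genes were uneven. Of 28 fatty acid oxidation and storage genes, 19 were lower and 4 higher, the latter Dgat1, Hilpda, Etfdh and Cd36. Dgat1, which makes triglyceride, rose from 15.8 to 18.6 CPM to 60.7 to 75.9 CPM (2.02 ± 0.09), and Lipa, the lysosomal acid lipase, fell from 1281 to 1356 CPM to 656 to 692 CPM (−0.98 ± 0.04). Abca1, the cholesterol exporter, rose from a mean of 279.8 ± 27.2 CPM to 944.3 ± 102.3 CPM (SD, n = 3; log2 change 1.75 ± 0.13), while Abcg1, another exporter, fell by 0.97 ± 0.08 and Fasn, fatty acid synthase, by 1.07 ± 0.07. Of 22 sterol synthesis genes 6 were higher and 1 lower, Dhcr7 (−1.59 ± 0.10), and 12 were higher without IL-4 replicate 2.

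Genes of nucleotide and ribosome production fell almost without exception. Of 24 nucleotide synthesis genes, 23 were lower and 1 higher, Impdh1 (0.84), with a median log2 change of −0.841 against 0.00585 for all genes. Gart, a trifunctional enzyme of purine synthesis, read 110, 106 and 102 CPM with IL-4 and 40, 35.7 and 34 CPM with PGE2 (−1.53 ± 0.07). Cad, which starts pyrimidine synthesis, fell from 61.8 to 75.3 CPM to 21.3 to 25.5 CPM (−1.56 ± 0.09). Of 30 ribosome biogenesis genes, 29 were lower and 1 higher, Heatr1 (0.28), with a median of −1.06. Nop56, a core protein of small nucleolar particles, read 135, 118 and 124 CPM against 51.5, 45.7 and 47.2 CPM (−1.38 ± 0.07). Ncl, nucleolin, fell from 636 to 726 CPM to 334 to 342 CPM (−1.002 ± 0.05). Of 76 cytosolic ribosomal protein genes, 71 were lower and 0 higher by edgeR, and Rpl10a fell by 0.71 on the log2 scale, from 316 to 367 CPM to 205 to 210 CPM. Many ribosomal protein genes have near-identical processed copies, so single values in this list are uncertain. Among tRNA synthetases 14 of 20 were lower and 2 higher, Iars and Rars. In the serine, folate and amino acid supply list, 9 of 21 were lower and 4 higher (Mthfd1l, Slc7a11, Trib3 and Sesn2), and Mthfd1, a folate enzyme, fell from 48.1 to 57 CPM to 23.6 to 24.8 CPM (−1.11 ± 0.08).

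DNA replication genes fell more than genes of mitosis. Of 42 replication genes, 37 were lower and 0 higher by edgeR, with a median log2 change of −0.984, and 20 of them fell at least 2-fold (4.69% of all genes did). Of 28 mitosis genes, 23 were lower and 1 higher, Aurka, with a median of −0.357, and 0 of them fell 2-fold. Mcm6, a subunit of the replicative helicase (chr1:128331590-128359664, minus strand), averaged 259 ± 15.4 CPM unstimulated. It read 182, 171 and 170 CPM with IL-4 and 38, 36 and 34.4 CPM with PGE2 (−2.27 ± 0.07), and per kilobase of exon it moved from rank 1261 to rank 5208. Pcna, the polymerase clamp, read 268, 269 and 275 CPM against 112, 118 and 124 CPM (−1.20 ± 0.05). Pold1, the catalytic subunit of polymerase delta, read 47.9, 44.4 and 47.4 CPM against 17.9, 16 and 17.9 CPM (−1.43 ± 0.08). Every PGE2 library was below every IL-4 library for these genes. Among mitosis genes Anln, a contractile ring protein, fell from 41.9 to 42.7 CPM to 24.8 to 28 CPM (−0.70 ± 0.07), and Ccna2, cyclin A2, from 54.1 to 63.2 CPM to 38 to 39.4 CPM (−0.60 ± 0.07). Upstream of both, Ccnd1, cyclin D1 (chr7:144929931-144939925, minus strand), read 651, 532 and 594 CPM with IL-4 and 150, 123 and 109 CPM with PGE2 (−2.22 ± 0.13). Cdk4, its kinase, and Myc fell by 0.94 ± 0.06 and 0.67 ± 0.08, and Cdkn2d, an inhibitor of Cdk4, rose by 0.57 ± 0.08. Their list of D and E cyclins, CDK inhibitors and Myc genes was mixed, with 7 of 22 higher and 8 lower. These shares, 31.8% and 36.4%, were near the 29.9% and 29.5% of all genes. At 2-fold or more, 2 members rose and 2 fell.

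Replication genes are textbook targets of E2F factors, and their promoter windows were searched for 3 forms of the E2F element, TTTGGCGC, TTTCCCGC and TTTCGCGC, on both strands. Of the 37 replication genes that fell, 31 had a RefSeq window, and 13 of those (41.9%) held at least 1 form. The element stood in 4.17% of windows of tested genes and in 2.12% of all windows. The replication list is a chosen set of such targets, so a high share is built in and says nothing about PGE2. No share is given for replication genes that did not fall. The stretches of Mcm6 and Pold1 show the matches in capitals. That of Mcm6 covers the 250 bases before the start (chr1:128359706-128359955, minus strand) and holds 3 matches, the first 2 of which overlap. That of Pold1 covers bases 21 to 50 after the start (chr7:44548766-44548795, minus strand). The search covered letters only and no binding was measured.
Mcm6: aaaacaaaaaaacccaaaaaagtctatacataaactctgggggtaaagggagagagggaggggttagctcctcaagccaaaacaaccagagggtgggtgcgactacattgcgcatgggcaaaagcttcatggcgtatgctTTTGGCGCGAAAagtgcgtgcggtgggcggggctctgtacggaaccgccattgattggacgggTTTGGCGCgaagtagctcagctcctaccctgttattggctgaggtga
Pold1: cacggcggcgtatcttgtgGCGGGAAAagc

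**Figure D3:**
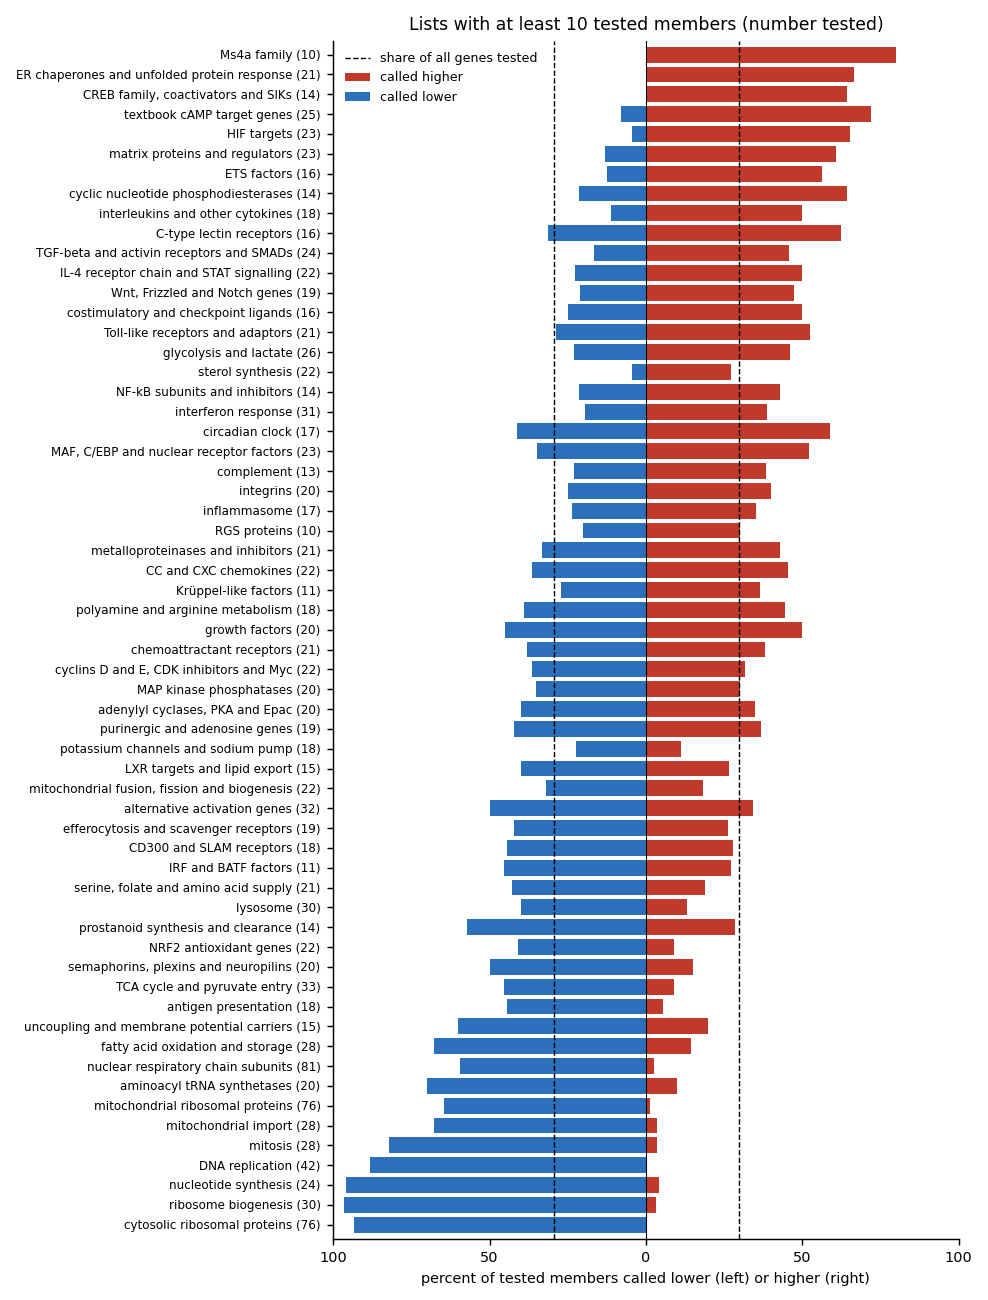
Percent of tested members called higher (right) or lower (left) with PGE2 in wild type macrophages, for lists with at least 10 tested members; dashed lines mark the shares over all tested genes, 29.9% higher and 29.5% lower. DNA replication, ribosome biogenesis, nucleotide synthesis and cytosolic ribosomal proteins reach 88.1 to 96.7% lower, and the Ms4a family 80% and textbook cAMP targets 72% higher.

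Receptors of innate immunity changed individually. Of 21 Toll-like receptor and adaptor genes, 11 were higher and 6 lower. Besides Tlr5, Tlr9, a receptor for unmethylated DNA, read 5.67, 5.42 and 5.39 CPM with IL-4 and 33.2, 34 and 28.3 CPM with PGE2 (2.54 ± 0.11). Cd14, the lipopolysaccharide co-receptor, read 57.5, 60.2 and 74.5 CPM against 1081, 1230 and 1531 CPM (4.32 ± 0.17), and per kilobase of exon it moved from rank 1285 to rank 39. Tlr7, a receptor for single-stranded RNA, went down from 78.6 to 87.7 CPM to 25.6 to 31.4 CPM (−1.49 ± 0.08). These 2 receptors for nucleic acids thus moved apart. Of 16 C-type lectins 10 were higher and 5 lower, the latter Clec5a, Clec4a3, Clec4b1, Clec12a and Colec12. Clec4d, a receptor for fungal and mycobacterial ligands, rose from 130 to 159 CPM to 539 to 611 CPM (1.99 ± 0.06), against 544 CPM in unstimulated cells, and Clec5a fell from 43.5 to 48.6 CPM to 14.4 to 17.5 CPM (−1.54 ± 0.08). Trem1, which amplifies inflammatory signals, rose from 0.399 to 1.31 CPM to 35 to 42.5 CPM, and Trem2, its lipid-sensing relative, fell from 1037 to 1199 CPM to 783 to 838 CPM (−0.47 ± 0.05).

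Ligands for T cells were among the most affected surface genes, with 8 of 16 higher and 4 lower, Cd40, Cd276, Lgals9 and Sirpa. Cd86 read 7.85, 7.01 and 8.05 CPM with IL-4 and 141, 130 and 116 CPM with PGE2 (4.08 ± 0.09). Havcr2, the checkpoint receptor TIM-3, rose from 50.5 to 61.5 CPM to 371 to 428 CPM (2.80 ± 0.07), and Cd80 from 11.8 to 13.9 CPM to 84.6 to 88 CPM (2.77 ± 0.10). Cd40 fell from 52.3 to 54.7 CPM to 11.2 to 13.8 CPM (−2.06 ± 0.12), near the 10 ± 0.764 CPM of unstimulated cells. Costimulatory genes thus went in opposite directions. In antigen presentation 8 of 18 genes were lower and 1 higher, Ctss, a call lost by DESeq2. H2-DMa, which loads peptides on class II molecules, fell from 67 to 72.1 CPM to 28 to 32.3 CPM (−1.21 ± 0.07), and Psmb8, an immunoproteasome subunit, by 0.66 ± 0.06, while the class II genes H2-Aa and H2-Ab1 did not pass.

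Chemokines and cytokines that changed did so from low levels in most cases. Of 22 chemokines, 10 were higher and 8 lower. Pf4, platelet factor 4, read 225, 231 and 231 CPM with IL-4 and 661, 538 and 581 CPM with PGE2 (1.37 ± 0.06). Ppbp, a neutrophil chemoattractant, rose from 1.72 to 2.53 CPM to 12.8 to 17.4 CPM (2.82 ± 0.18). Cxcl3 had 1 count over the IL-4 libraries and 33 over the PGE2 libraries, a ratio of 34.2 with a counting interval of 5.72 to 1389. Ccl2 and Ccl7, which attract monocytes, fell by 0.53 and 0.58 on the log2 scale. Of 21 chemoattractant receptors, 8 were higher and 8 lower. Ackr3, an atypical chemokine receptor, was at 0 counts in all 3 IL-4 libraries and at 153 counts over the PGE2 libraries, at least 52.8-fold higher against a floor of 3 counts over the group. With so few counts under IL-4, Cxcl3 and Ackr3 could enter the list counts only as rises. S1pr1, a sphingosine-1-phosphate receptor, rose from 10.5 to 14.3 CPM to 42.7 to 48.1 CPM (1.86 ± 0.10), and Ptafr, the receptor for platelet-activating factor, fell by 1.15 ± 0.08. Of 18 cytokines 9 were higher and 2 lower, Tnfsf12 and Tnf, and 1 was lower without IL-4 replicate 3. Osm, an IL-6 family cytokine, rose from 8.81 to 12.4 CPM to 31.8 to 37.7 CPM (1.68 ± 0.11), and Il1b rose from 0.61 to 0.938 CPM to 3.26 to 5.54 CPM.

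Sensors and effectors of inflammation were mixed. In the inflammasome list 6 of 17 were higher and 4 lower, the latter Pycard, Casp1, Nek7 and Nlrp10. The sensor Nlrp3 rose from 38.3 to 41.2 CPM to 93.2 to 102 CPM (1.29 ± 0.07) and the adaptor Pycard fell from 70.3 to 83.7 CPM to 34.7 to 40.4 CPM (−0.997 ± 0.07). Of 31 interferon response genes, 12 were higher and 6 lower. The RNA sensors Dhx58, Ddx58 and Ifih1 rose by 1.25 ± 0.07, 0.93 ± 0.06 and 0.84 ± 0.07. Complement factor Cfp, properdin, rose from 428 to 501 CPM to 887 to 935 CPM (0.96 ± 0.05), and Itgax, a complement receptor subunit also known as CD11c, fell from 646 to 770 CPM to 310 to 383 CPM (−1.03 ± 0.09).

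The Ms4a family of tetraspanning membrane proteins had the highest median among the lists, 1.34, with 8 of 10 tested members higher and 0 lower by edgeR. Ms4a6d read 500, 445 and 453 CPM with IL-4 and 1473, 1405 and 1330 CPM with PGE2 (1.59 ± 0.05). Ms4a4a read 260, 253 and 237 CPM against 652, 626 and 584 CPM (1.31 ± 0.05), and Ms4a6b 37.8, 33.8 and 39.3 CPM against 206, 209 and 194 CPM (2.46 ± 0.06). The groups did not overlap for any of these. Per kilobase of exon, Ms4a6d and Ms4a4a moved from ranks 145 and 123 to ranks 36 and 38. Ms4a6b, Ms4a6c and Ms4a6d are close paralogs, so reads may be split between them.

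Among matrix proteins and their regulators 14 of 23 were higher and 3 lower, and among metalloproteinases and their inhibitors 9 of 21 were higher and 7 lower. Vcan, the proteoglycan versican, rose from 1.51 to 2.96 CPM to 19.7 to 23.2 CPM (3.18 ± 0.17). The 3 falls were Fn1, fibronectin, from 182 to 210 CPM to 111 to 122 CPM, Plau and Loxl3. Mmp19, a metalloproteinase, rose from 88.7 to 106 CPM to 422 to 487 CPM (2.25 ± 0.06), whereas Mmp12, macrophage elastase, fell from 2993 to 3309 CPM to 1629 to 1911 CPM (−0.77 ± 0.07). Of 20 integrins 8 were higher and 5 lower, Itga5, Itga6, Itgal, Itgax and Itgb5. Itga9, which pairs with beta 1, rose from 37.8 to 48.7 CPM to 242 to 283 CPM (2.62 ± 0.09), and Itgb8, which activates TGF-beta, from 3.67 to 4.36 CPM to 21 to 24 CPM (2.48 ± 0.14). Of 20 growth factors 10 were higher and 9 lower. Pgf, placenta growth factor, rose from 1.17 to 1.48 CPM to 12.4 to 14 CPM (3.35 ± 0.17), and Igf1 fell from 963 to 1079 CPM to 487 to 507 CPM (−1.04 ± 0.05). Tgfbr1, the type I receptor of TGF-beta, fell from 218 to 247 CPM to 115 to 124 CPM (−0.95 ± 0.05), opposite to the ligand gene Tgfb3. This was the largest fall in a list of 24 tested TGF-beta and activin receptor, SMAD and related genes. Of these 24 genes, 11 were higher and 4 lower.

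Purinergic genes held 7 rises and 8 falls among 19. Adora2b, an adenosine receptor that also signals through cAMP, read 26.3, 21.8 and 23 CPM with IL-4 and 115, 125 and 119 CPM with PGE2 (2.34 ± 0.07). With Nt5e, which makes adenosine, it rose while Slc29a1, a nucleoside transporter, fell from 111 to 131 CPM to 44.2 to 51.7 CPM (−1.39 ± 0.07) and the ADP receptor P2ry1 fell by 1.32 ± 0.10. Among potassium channels, 2 genes fell strongly. Kcnj2, an inward rectifier that sets the resting potential (chr11:111066164-111076821, plus strand), read 40.1, 29.4 and 32 CPM with IL-4 and 6.59, 6.35 and 7.1 CPM with PGE2 (−2.34 ± 0.12). Kcnn4, a calcium-activated channel, read 282, 266 and 294 CPM against 84.6, 70.6 and 80.9 CPM (−1.83 ± 0.06). With PGE2 both lay below their mean in unstimulated cells, 85.5 CPM for Kcnj2 and 291 CPM for Kcnn4. Scavenging genes fell more often than they rose, 8 against 5 of 19, the rises being Stab1, Cd36, Cd163, Scarb2 and Cxcl16. Anxa1, annexin A1, fell from 1321 to 1496 CPM to 473 to 604 CPM (−1.43 ± 0.08), and Gas6, a ligand of the receptors that take up dead cells, by 0.94 ± 0.05. In the lysosome list 12 of 30 were lower, and its regulators Mitf and Tfeb fell by 1.22 ± 0.06 and 1.16 ± 0.07.

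Stress programmes diverged. Of 23 HIF target genes, which respond to low oxygen and other stimuli, 15 were higher and 1 lower, with a median log2 change of 0.527. Hif1a itself read 73.8, 69.3 and 67 CPM with IL-4 and 236, 234 and 226 CPM with PGE2 (1.73 ± 0.05), and the one member that fell was Bhlhe40 (−0.77 ± 0.05). Of 21 endoplasmic reticulum chaperone and unfolded protein response genes, 14 were higher and 0 lower by edgeR, by no more than 0.589 on the log2 scale, and 1 was lower in 6 of the alternative analyses. Xbp1, a transcription factor of that response, rose from 207 to 231 CPM to 270 to 299 CPM (0.40 ± 0.05). Of 22 NRF2 antioxidant genes, 9 were lower and 2 higher, Srxn1 and Slc7a11. Nfe2l2, which encodes NRF2, fell from 164 to 169 CPM to 112 to 119 CPM (−0.54 ± 0.05), and Txnrd1, thioredoxin reductase, from 138 to 157 CPM to 85.2 to 97.8 CPM (−0.69 ± 0.06). Genes of the circadian clock were all called, 10 higher and 7 lower of 17, and 4 were called lower without IL-4 replicate 3 or without PGE2 replicate 2. Per1, a period gene that cAMP can induce, rose from 38.6 to 43.5 CPM to 58.7 to 65.1 CPM (0.58 ± 0.06). Of the MAP kinase phosphatases, Dusp5, which acts on ERK in the nucleus, rose from 11.8 to 14.4 CPM to 94.9 to 117 CPM (2.99 ± 0.10), and Dusp2 fell by 1.31 ± 0.14.

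The control shRNA cells gave a second measurement of the contrast in libraries that share no sample with the wild type ones. Their totals ran from 8990406 to 30473040 counts. Replicate 2 stood apart in both groups: the chi-square per degree of freedom between replicates was 12.94 to 18.57 for pairs with it and 2.93 to 3.547 for the other pairs. Of 12382 genes tested there, 59.4% were called, 29.3% higher and 30.1% lower, and 7.71% and 7.21% were called at 2-fold or more. Over the 11906 genes tested in both, 2559 were called higher in both experiments, 68.96% of the wild type rises and 72.78% of the control shRNA rises. For falls the number was 2651, or 72.89% and 72.14%. Genes called in opposite directions numbered 102 of the wild type rises and 97 of the falls. Among calls of at least 2-fold, 450 rises and 365 falls were shared, which is 73.53% and 69% of the wild type calls and 53.19% and 43.3% of those in control shRNA.

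**Figure D4:**
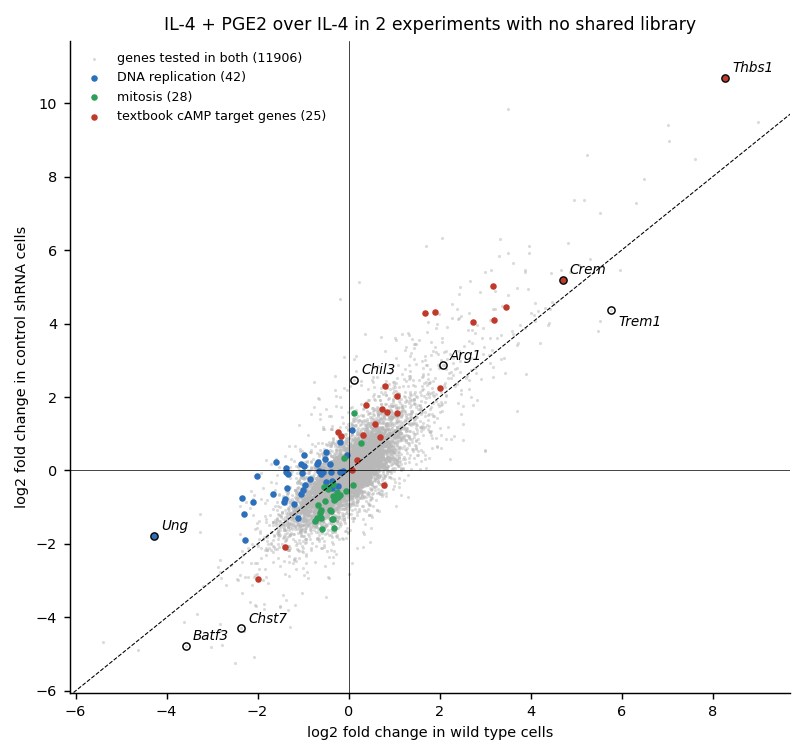
Log2 change with PGE2 in wild type (horizontal axis) and in control shRNA macrophages (vertical axis) for the 11906 genes tested in both; coloured points are DNA replication (42), mitosis (28) and textbook cAMP target (25) genes and the dashed line marks equal change. Most replication genes lie above the line and most mitosis genes below it.

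A test of the difference between the experiments, in one fit of all 30 libraries, called 2545 of 13358 genes (19.1%), and 2516 without control shRNA replicate 2. Of the 34 genes that were named in every case or for their size of change, 8 differed, all with the same sign in both experiments. Thbs1 rose further in control shRNA cells, with a log2 change of 10.69 against 8.27. Chil3, which hardly moved in wild type cells, rose there by 2.48 (adjusted p = 4.1e-11), a difference of −2.34. Arg1 also rose more there, by 2.87. Crem rose by 5.195, and its difference of −0.478 lost the call without control shRNA replicate 2 (−0.382, adjusted p = 0.107). The malate-aspartate genes Got1 and Slc25a13 changed by 1.62 and −1.92 in control shRNA cells, and the differences did not pass, at −0.22 (adjusted p = 0.16) and 0.14 (adjusted p = 0.5). Etv1 rose by 1.02 there (adjusted p = 1.2e-05), with a difference of 0.13 (adjusted p = 0.69). Retnla fell by 1.66 (adjusted p = 0.014), a call lost without that replicate (adjusted p = 0.0655). Ch25h did not pass in the unpaired fit of control shRNA cells, at −1.17 (adjusted p = 0.054). With the replicate number as a block its log2 change there was −1.23 and its adjusted p 0.00087. Without control shRNA replicate 2 it passed as well (−1.10), and so did its difference of −2.14 between the experiments (adjusted p = 0.000277).

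The 2 parts of the cell cycle differed between the experiments in opposite ways. For 33 of the replication genes the wild type change lay below that in control shRNA cells, and for 29 without control shRNA replicate 2. In control shRNA cells 17 of the 42 were lower and 8 higher, with a median log2 change of −0.0967 against −0.984 in wild type. Mcm7, another helicase subunit, fell from 72.2 to 78 CPM to 26.3 to 31 CPM in wild type cells (−1.39 ± 0.07) and was at 0.06 in control shRNA cells (adjusted p = 0.66), a difference of −1.43 (adjusted p = 6.1e-09). Mcm6 and Pold1 fell in both, by 1.89 and 0.84 in control shRNA cells. For 18 of the mitosis genes the wild type change lay above the control shRNA one, and for 2 below it. In control shRNA cells 25 of 28 were lower and 3 higher (Cdk1, Aurka and Cenpa), with a median of −0.791 against −0.357. Ccna2 fell by 1.31 there, a difference of 0.72 (adjusted p = 0.00023).

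Other lists were close in count, or not, without a test of the list itself. Ribosome biogenesis had 27 of 30 lower and 2 higher (Heatr1 and Rrp1b) in control shRNA cells, with a median of −1.07, and textbook cAMP targets had 21 of 25 higher and 3 lower (Egr2, Atf3 and Cited2), with a median of 1.67. HIF targets had 19 of 23 higher and 2 lower (P4ha1 and Bhlhe40) there. The interferon list had 1 higher (Irf7) and 7 lower against 12 and 6 in wild type. The test of the difference called only 1 of its 31 members, against 19.1% of all genes, so these counts do not show a changed response. NRF2 genes had 8 higher and 3 lower (Hmox1, G6pdx and Tkt) against 2 and 9. For 9 of those 22 genes the difference was called, with the wild type change below in each. Txnrd1, which fell in wild type cells, was at 0.16 there (adjusted p = 0.26), a difference of −0.84 (adjusted p = 0.00011), and at 0.19 without replicate 2 (adjusted p = 0.0397). Odc1 rose by 3.44, Ms4a4a by 3.75, and Itgax fell by 3.32 in control shRNA cells, each further than in wild type. Pparg fell by 0.87 there, less than in wild type, and by 0.736 without replicate 2 (adjusted p = 0.0517).

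**Figure D5:**
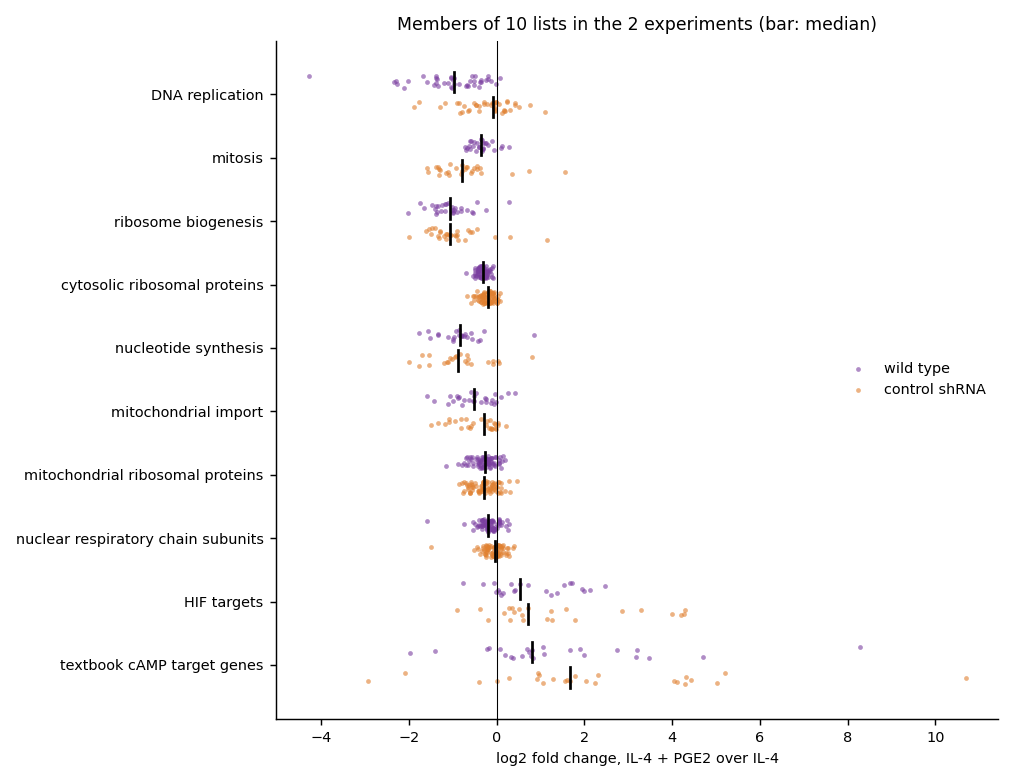
Log2 change with PGE2 of the tested members of 10 lists in wild type and in control shRNA macrophages; points are genes and bars are medians. The replication median is −0.984 in wild type and −0.0967 in control shRNA, and the mitosis medians are −0.357 and −0.791, while ribosome biogenesis stands at −1.06 and −1.07.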

How the data were processed

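RNA-seq was made from bone marrow-derived macrophages in 10 groups of 3 libraries, of which the 2 wild type groups given IL-4, with and without PGE2, are the subject. The authors deposited raw read counts per gene, which were used as deposited. Per the labels' protocols the libraries were stranded mRNA libraries. Per the submitters' processing notes STAR, featureCounts, DESeq2 and deepTools were used with GRCm38, and their versions, order and strand setting are not given in the sources used here. All 43629 gene identifiers were shared by the 30 files, 42548 (97.52%) matched GENCODE M21 on GRCm38, and identifiers without a match held 0.153% of counts.

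Counts were tested with edgeR 4.0.16 (R 4.3.3, limma 3.58.1): TMM scaling, filterByExpr, robust quasi-likelihood fit of the 12 wild type libraries, Benjamini-Hochberg adjustment over 12824 genes and a threshold of 0.05. The standard error is the log2 change divided by the root of the F statistic. Control shRNA libraries were tested in a fit of 18 shRNA libraries (12382 genes), and the difference between the experiments in a fit of all 30 (13358 genes). In control shRNA, same-numbered libraries deviated together (r = 0.251, 0.433 and 0.146), but PGE2 replicate 3 did so as much with IL-4 replicate 1 (r = 0.16). The fits above did not pair the samples, so their control shRNA p-values ignore any pairing. The replicate number as a block was an alternative, with 3818 genes higher and 3920 lower in control shRNA. On simulated counts for 12652 genes of the wild type comparison, the test called 96% of 2-fold and 98% of 4-fold changes and 0.0562% of unchanged genes. Only 200 genes above 1 CPM were changed there, and the simulated spread depended on level alone. In the real comparison 59.4% of genes were called, so these rates need not hold for it. DESeq2 1.42.0 served as an alternative. Intervals on count ratios and floors cover counting error only, at 95% confidence. The most similar pair of replicates in the 6 libraries differed by more than sampling noise (chi-square per degree of freedom 2.933).

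Genes were named by rule: Etv1, Got1, Retnla, Arg1, Chil3 and Crem; the 15 largest rises and 15 largest falls among called genes whose groups did not overlap and whose higher group averaged 5 CPM or more; up to 4 members of each of 66 lists with the smallest adjusted p; and all PGE2 receptor and malate-aspartate genes. The comparison, the members and the lists were chosen with earlier results of these data known. Other genes named with a list count of 5 or fewer, and Ptgs2, Slc16a3, Stat6, Srm, Sms, Nr4a1, Nr4a2, Nr4a3, Fosb, Egr2, Dusp1, Impdh1, Heatr1, Ccl2, Ccl7, H2-Aa, H2-Ab1, Cxcl3, Ackr3 and Pde11a, were chosen after their values were seen. Promoter windows came from RefSeq. Under 80% of the genes in each called set had a window (72 to 79.2%), so motif shares over called sets were void and are not given. Some genes are not reported here.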

Additional observations from a re-analysis of the deposited data

Results flagged for a closer look

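The log2 change with PGE2 was compared between wild type and control shRNA macrophages by a test of the difference itself. Of the 292 genes that the naming rule picked, 100 (34.2%) differed, against 19.1% of all genes tested. The rule picked most of them by the size or adjusted p of their wild type change in these data. A higher share is therefore built in, and no enrichment is read from it. Values are given for the 8 that differed among the 34 genes named in every case or for their size of change, and for 10 list members chosen after their values were seen. They are wild type minus control shRNA on the log2 scale. Among genes that rose in both experiments, the rise was smaller in wild type cells for Thbs1 (−2.41), Arg1 (−0.786), Crem (−0.478), Chil3 (−2.34), Odc1 (−1.94) and Ms4a4a (−2.42), and larger for Trem1 (1.39). Among genes that fell in both, the fall was larger in wild type cells for Ung (−2.5), Mcm6 (−0.366), Pold1 (−0.576) and Pparg (−0.944), and smaller for Batf3 (1.21), Chst7 (1.95), Itgax (2.31) and Ccna2 (0.725). Mcm7 (−1.43) and Txnrd1 (−0.842) fell in wild type cells and were not called in control shRNA cells with all libraries. Ptger4 (1.19) fell in control shRNA cells and was not called in wild type cells. Without control shRNA replicate 2, which stood apart from its replicates, 17 of the 18 differences passed and that of Crem did not. The shRNA libraries also differ in lentiviral transduction and were made as a separate set of samples, and these cannot be told apart from the difference between the experiments.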

How the results depend on the processing

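Across 13 alternatives for wild type, 11 for control shRNA and 4 for the difference, covering scaling, DESeq2, filters, the 6 libraries alone, the replicate block and each library left out, the numbers of called genes stayed within 1.5 times of the values given. Wild type rises ran from 3300 to 3913 and falls from 3421 to 3939, with DESeq2 lowest for both at 3300 and 3421. Control shRNA rises ran from 3099 to 3818 and falls from 3314 to 3920, and genes that differed between the experiments from 2516 to 3012. Wild type replicate numbers were likewise not used to pair the samples (r = 0.11, 0.0529 and 0.169). Each PGE2 library correlated best with the IL-4 library of its own number, a hint from the data and not the design. With the replicate block 3913 genes were higher and 3819 lower. Sterol synthesis rises went from 6 to 10 with that block. Signs reversed for genes with no call: with 1 library left out in turn, Col1a2 ran from −0.396 to 0.0775 (above 0 without IL-4 replicate 1 or 2 or PGE2 replicate 2), Cd79b from −0.242 to 0.0232 and Ptger4 from −0.144 to 0.0811 (the last 2 above 0 without PGE2 replicate 3). With the replicate block the difference between the experiments reversed to 0.0137 for Slc4a11 and 0.0543 for Slamf8, and without control shRNA replicate 2, an alternative chosen after seeing the data, to 0.12 for Slc4a11. In control shRNA cells Ch25h passed without IL-4 replicate 2 (−1.50) and without PGE2 replicate 1 (−1.43), and Retnla did not pass without IL-4 replicate 1 (−1.58, adjusted p = 0.0504). The difference between the experiments was called for Retnla with no filter (−1.67) and with the block (−1.48), and for Ch25h likewise (−2.15 and −2.05). The cause of these changes was not tested. The motif alternative, and searches for ETS and AP-1 motifs, were not run. Genes near or under 3 counts per library could not be measured at this depth, and Ptger3 lay far under that level.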
